A study of Homo sapiens with 24 samples.

Results

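The proteins of the cytosolic ribosome are encoded by a set of genes that is among the most highly transcribed in a growing cell, and their mRNAs were followed here through the response of A549 cells to a glucocorticoid. Members were chosen by symbol: protein-coding genes named RPL or RPS with a number, together with RPLP0, RPLP1, RPLP2 and RPSA. This left 77 of the 33126 genes of the count table, 43 of the large subunit, 31 of the small subunit and the 3 proteins of the P stalk. Not counted as members were 8 genes named as -like copies, the ribosomal S6 kinases, the Y-linked RPS4 genes, RPS19BP1 (a binding partner, not a ribosomal protein) and 3 readthrough genes. The readthrough gene RPL17-C18orf32 held 38410 counts, RPL36A-HNRNPH2 held 5674 and RPS10-NUDT3 held 5284, so the counts of RPL17, RPL36A and RPS10 rest on how reads were split between overlapping transcripts. Processed pseudogenes of ribosomal protein genes are numerous in the human genome, and since the table holds counts for only 1 of them by name (RPS10P7, 1114 counts over all libraries), reads shared with such copies could not be told apart from reads of the members.

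The cells were A549, an established human line that came from an adenocarcinoma of the lung. The glucocorticoid was dexamethasone (dex), which is made synthetically and binds the glucocorticoid receptor (GR). Dex-treated cells received 100 nM dex dissolved in ethanol, and control cells received the same volume of ethanol alone (EtOH, 0.02% of the medium by volume), each for 1, 3, 5, 7, 9 or 11 hours. All cells were of the same line in the same serum-containing medium, and each of the 12 groups held 2 libraries of poly-A RNA labelled as biological replicates, 24 libraries in all. Nothing in the labels says that replicates were separate cultures grown on different days, so p-values measure the spread between these libraries.

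Ribosomal proteins assemble with rRNA in the nucleolus, nearly every protein once per ribosome, and the P stalk of the large subunit recruits the GTPases that drive translation. Most of their mRNAs begin with a C followed by an unbroken run of pyrimidines, the 5′ terminal oligopyrimidine (TOP) tract, through which the mTORC1 kinase and the RNA-binding protein LARP1 adjust their translation together. Glucocorticoids are known to restrain mTORC1 in muscle and other tissues, in part through the target gene DDIT4 (REDD1). RNA-seq of total mRNA measures how much of each transcript is present and not how much of it is translated.

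The TOP tract was read from RefSeq transcription start sites (assembly GRCh38.p14), which gave an entry for 62 of the 77 members. In 46 of them (74.2%) an annotated start was, on the strand of the gene, a C followed by at least 4 pyrimidines (C or T). This held for 5.14% of all 27305 gene symbols with an entry. Where a gene had several annotated starts, the start with the longest tract was taken. Counted by start, it held for 59.7% of the 77 starts of members and 4.07% of all 35116 starts. When the tract was allowed to begin up to 5 bases to either side of the annotated start, 53 members (85.5%) and 25.2% of all symbols held one. The tract ran for 5 to 19 bases, with a median of 8. The windows printed next run from 10 bases before the annotated start to 20 bases from it, with the tract in capitals. RPLP2 and RPS16 are shown because their dex effect differed between hours, RPL39 and RPL41 because they hold the longest and the shortest tract, RPS19 and RPS27A because they were called at several hours, and RPL10A and RPL19 because they were called at several hours and hold no tract at the annotated start.
RPLP2: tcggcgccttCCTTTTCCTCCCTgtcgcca
RPS16: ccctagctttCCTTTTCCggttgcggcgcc
RPL39: ccgccagcttCCCTCCTCTTCCTTTCTCCg
RPL41: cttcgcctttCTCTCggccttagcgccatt
RPS19: ccccgtcgttCCCTTTCCCCTggctggcag
RPS27A: ggcgttcttcCTTTTCgatccgccatctgc
RPL10A: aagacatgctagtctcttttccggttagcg
RPL19: tctccccttcgcagataatgggaggagccg
On GRCh38.p14 these windows lie at chr11:809957-809986 (plus strand) for RPLP2, chr19:39435930-39435959 (minus strand) for RPS16, chrX:119791611-119791640 (minus strand) for RPL39 and chr12:56116623-56116652 (plus strand) for RPL41. The window of RPS19 is chr19:41860245-41860274 (plus strand), that of RPS27A chr2:55232678-55232707 (plus strand), that of RPL10A chr6:35468391-35468420 (plus strand) and that of RPL19 chr17:39200273-39200302 (plus strand). A match of letters describes the annotated start and not the start used in these cells.

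Libraries held 6708864 to 13748598 counts. Of the genes, 15337 had enough counts to be tested, all 77 members among them, so no member was lost to the filter. Differences between dex and EtOH were tested at each hour with edgeR's quasi-likelihood test on 2 libraries against 2, and a gene was called at an adjusted p of at most 0.1. The response to dex was present: TSC22D3, a classical GR target, stood at 80.3 and 90.6 CPM with dex against 7.54 and 10.3 CPM with EtOH after 1 h, and FKBP5, KLF9 and PER1 rose at every hour, except FKBP5 at 1 h with an adjusted p of 0.131. All 6 epithelial markers chosen were expressed, none of the 5 alveolar markers had enough counts to be tested, and of the 5 markers of other cell types matched, COL1A1 and CD68 had enough. All 6 epithelial markers passed for the mean effect of dex over the 6 hours, KRT8, KRT18, KRT7 and CDH1 higher and EPCAM and KRT19 lower (mean log2 fold changes from -0.55 for EPCAM to 0.94 for KRT8). The matrix gene COL1A1 was called at 4 hours with log2 fold changes from -1.35 to 0.57, CD68 was called at none, and the part of these genes in the results on the members was not tested. Values below are CPM (gene counts scaled to a common library total after TMM) when libraries are compared. When genes are compared they are TPM (counts divided by transcript length and scaled to a common library total, without TMM). Both are relative to the other mRNAs of a library, so fewer ribosomal protein transcripts per cell cannot be told apart from more of everything else.

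Together the 77 members took 2.59% to 3.68% of the gene counts of a library. The lowest and the highest share both belonged to the EtOH group at 9 h, replicate 1 with 2.59% and replicate 2 with 3.68%. The 12 dex libraries ranged from 2.61% to 3.19% and lay inside the range of the EtOH libraries.

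**Figure D1:**
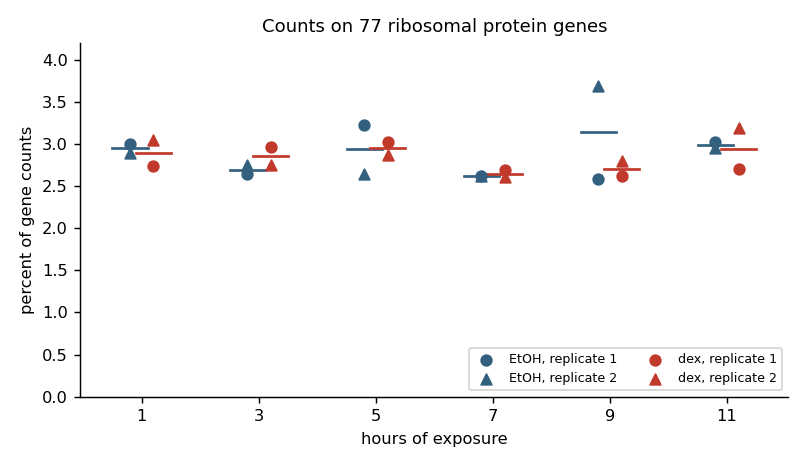
Percent of each library's gene counts that fell on the 77 ribosomal protein genes (vertical axis) against hours of exposure (horizontal axis), with circles and triangles for replicates 1 and 2, red for dex, blue for EtOH and a bar at each group mean. Dex and EtOH overlap at most hours, and the EtOH libraries at 9 h lie furthest apart, at 2.59% and 3.68%.

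The level of the members spanned 61.8-fold. In the EtOH libraries RPL41, the smallest ribosomal protein, was highest at 2559.8 ± 335 TPM (SD, n = 12), followed by RPL7 of the large subunit at 2447 ± 270.2 TPM (SD, n = 12) and the stalk protein RPLP1 at 2392 ± 551 TPM (SD, n = 12). These 3 levels differed by less than their spread over libraries. The lowest were RPS28 at 41.4 ± 9.68 TPM (SD, n = 12), RPL37 at 77.0 ± 14.0 TPM (SD, n = 12) and RPS15 at 98.7 ± 19.2 TPM (SD, n = 12). All 77 members lay above 13.7 TPM, the median of the tested genes, and their own median was 688 TPM. The place of the lowest members in this order depends on transcript models: the transcript that carried most counts of RPL37 is 7686 bases long in the annotation used here, and the only one listed for RPS28 is 1326 bases long, which lowers a value scaled by length. Where reads fit several transcripts or a pseudogene, the order depends on their placement as well. Among proteins with a second role, RPL5 stood at 1095 ± 89.8 TPM (SD, n = 12) and RPL11 at 286 ± 37.2 TPM (SD, n = 12), and both bind the 5S rRNA and can restrain the p53 regulator MDM2. RPS6, the target of the S6 kinases, stood at 1186 ± 151 TPM (SD, n = 12), and RPSA, also known as the laminin receptor, at 657 ± 68.1 TPM (SD, n = 12). Over the 24 libraries the coefficient of variation of CPM ran from 7.39% for RPL5 to 28.4% for RPS19, a small subunit protein mutated in Diamond-Blackfan anemia.

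In some groups most members differed between the 2 replicate libraries in the same direction. In EtOH replicate 2 at 9 h, all 77 members lay above their own mean over the 24 libraries, by a median of 0.40 on the log2 scale, while in replicate 1 of that group 67 lay below it, with a median of -0.24. The median of all tested genes in these libraries differed from their mean by 0.0083 and 0.014. In dex replicate 2 at 1 h, the library with the fewest counts, 65 members lay above their mean (median 0.27), and in the EtOH group at 5 h, replicate 1 stood at a median of 0.15 and replicate 2 at -0.18. Replicate 1 minus replicate 2 was negative for 76 of 77 members in EtOH at 9 h (median -0.66) and positive for 71 in EtOH at 5 h (median 0.34). Other groups showed little of this: in EtOH it was positive for 37 and negative for 40 at 3 h (median -0.017) and positive for 43 and negative for 34 at 11 h (median 0.013). For comparison, the medians over members of the difference between dex and EtOH means ran from -0.10 at 9 h to 0.097 at 3 h, smaller than either replicate difference. The median size of the replicate difference in EtOH at 9 h was 0.66 over members and 0.22 over all tested genes, and in dex at 7 h it was 0.059 over members and 0.14 over all tested genes.

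**Figure D2:**
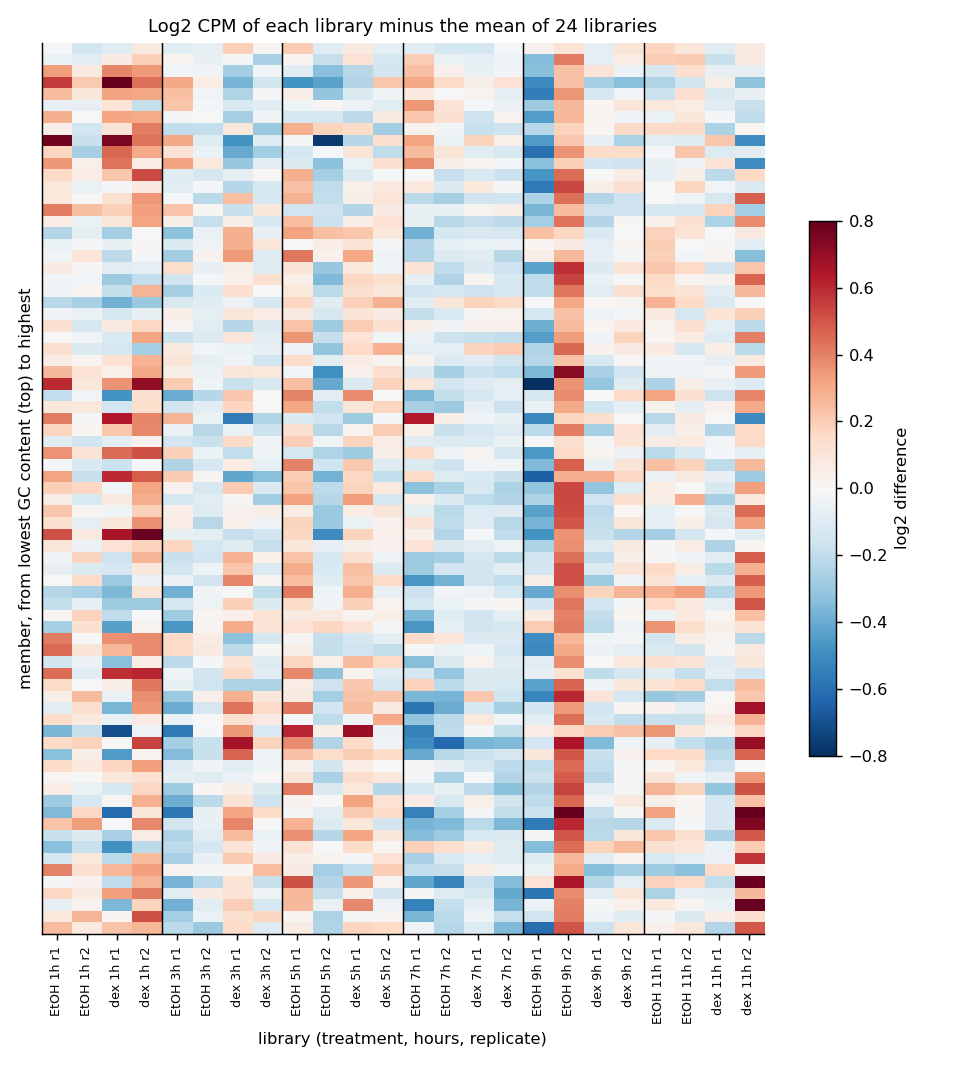
Log2 CPM of each of the 77 members (rows, ordered by GC content) in each of the 24 libraries (columns, grouped by hour) minus that member's mean over all libraries, with red above and blue below the mean on a log2 scale cut at 0.8 in either direction. EtOH replicate 2 at 9 h is red in all 77 rows, and in dex replicate 2 at 11 h the lower, GC-rich rows are red while many upper rows are blue.

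Differences between libraries went along with base composition in some groups and little in others. Transcripts of the members ranged from 43.3% to 62.6% GC. Over the 77 members, the correlation between GC content and the difference between replicates of a group ran from -0.51 (dex at 11 h) to 0.55 (dex at 7 h) over the 12 groups. It was -0.070 in EtOH at 9 h and 0.11 in EtOH at 5 h. Over all tested genes these 4 groups gave -0.47 (dex at 11 h), 0.13 (dex at 7 h), -0.25 (EtOH at 9 h) and 0.24 (EtOH at 5 h). For the difference between dex and EtOH means the members gave 0.48 at 3 h, 0.49 at 11 h, 0.31 at 7 h and -0.32 at 9 h. They gave -0.16 at 1 h and -0.022 at 5 h. All tested genes gave 0.245 at 3 h, 0.18 at 11 h, 0.14 at 7 h and -0.16 at 9 h, with -0.15 at 1 h and 0.095 at 5 h. The points of each correlation share the same 4 libraries or fewer, and genes are not independent replicates. With the GC trend of each library removed, 1 member was called at 1 h (0 without this step), 17 at 3 h (20) and 4 at 5 h (7). There were 16 at 7 h (18), 5 at 9 h (4) and 0 at 11 h (1). Of these, 15 at 3 h and 10 at 7 h were among the members called without it. The share of all tested genes called with this step was 1.72% at 1 h, 13.9% at 3 h and 26.1% at 5 h. It was 28.2% at 7 h, 20.1% at 9 h and 12.9% at 11 h.

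Averaged over the 6 hours, no ribosomal protein gene passed the test for an effect of dex. In one fit over the 24 libraries, 0 of 77 members passed at an adjusted p of at most 0.1, against 35.9% of all tested genes. At an unadjusted p below 0.05 there was 1, RPL7 (mean log2 fold change -0.11, SE 0.051, adjusted p = 0.113), and DESeq2 called 1 member (32.2% of all genes). The mean effect ran from -0.11 for RPL7 to 0.21 for RPS28, a protein near the mRNA exit of the small subunit (mean log2 fold change 0.21, SE 0.10, adjusted p = 0.137). The 95% interval lay within 1.25-fold of no change in either direction for 68 of 77 members and within 1.5-fold for all 77. RPL5 had the interval -0.048 to 0.11, among the narrow ones, and RPS19 the interval -0.21 to 0.44, which reached furthest upward. By subunit, the median of the mean effect was 0.027 over 43 large subunit genes, 0.0048 over 31 small subunit genes and 0.023 over the 3 stalk genes, beside -0.0039 over all tested genes. Scaled by total counts, the median over the 77 members was -0.021 and that of all genes -0.047. Members with a TOP tract at an annotated start had a median of 0.0068 (46 genes) and those without one at any annotated start 0.044 (16 genes). With no filter on low counts 8 members passed, beside 20.7% of all genes. The count of 0 depended on single libraries: some members passed without either EtOH library at 9 h or without dex replicate 1 at 1 h. In each of these cases the share of members that passed stayed below that of all tested genes.

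**Figure D3:**
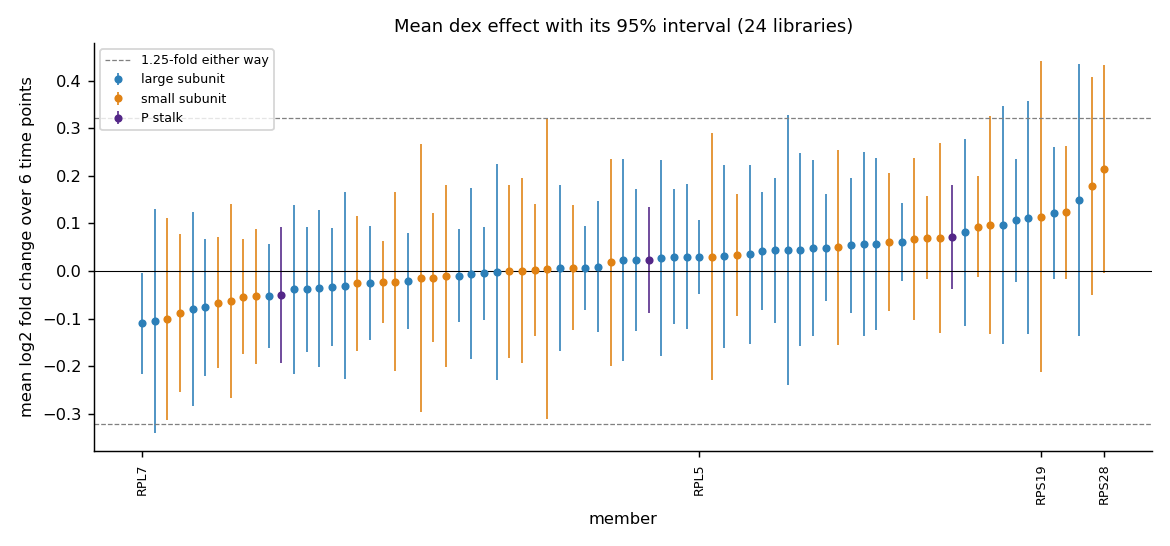
Mean log2 fold change of dex against EtOH over the 6 hours (vertical axis) for each of the 77 members (horizontal axis, in order of the effect), with bars for the 95% interval from the fit over 24 libraries, colours for the subunit and dashed lines at 1.25-fold. Points run from -0.11 for RPL7 to 0.21 for RPS28, and RPL7 alone has an interval that leaves out 0.

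At single hours some members were called, in both directions and by small amounts. No member was called at 1 h (0 of 77, 11 at an unadjusted p below 0.05, 0 with DESeq2), where 1.06% of all tested genes were. With the replicate number as a block 8 were called, all higher with dex (3.8% of all genes). Members were also called without EtOH replicate 1, without dex replicate 1 (all higher) and without dex replicate 2 (in both directions). Of all tested genes, more were called without either dex library and fewer without either EtOH library. The share of members was above that of all tested genes in each case where members were called. At 3 h 20 members were called (14.1% of all genes), 13 higher (8.42% of all genes) and 7 lower (5.65%). At 5 h there were 7 (25.0% of all genes), 6 higher (12.4%) and 1 lower (12.6%). At 7 h there were 18 (28.2%), 12 higher (14.7%) and 6 lower (13.5%). The balance at 7 h depended on the scaling. With total counts in place of TMM 19 were called (28.5% of all genes), 6 higher and 13 lower, 12 of them shared with the 18. With the GC trend removed 16 were called (28.2%), 8 higher and 8 lower. At 5 h total counts gave 3 (25.1%), 2 higher and 1 lower. At 9 h 4 members were called (19.8%), 0 higher (10.8%) and 4 lower (8.96%), and at 11 h 1 member, higher with dex (9.12% of all genes in either direction). The share of members called, 26.0% at 3 h, was above the share of all genes there, and it was below that share at each other hour. Medians of the log2 fold change over the 77 members were 0.055 at 1 h, 0.10 at 3 h, 0.049 at 5 h, 0.032 at 7 h, -0.12 at 9 h and 0.022 at 11 h, while the medians over all tested genes ran from -0.0059 to 0.014. Scaled by total counts without TMM, the members' median turned negative at 7 h (-0.0073) and 11 h (-0.040), where the medians of all genes were -0.040 and -0.048.

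Over the whole course 43 members were never called. A further 21 passed at a single hour, 10 passed at 2 of the 6 hours, and 3 members passed at 3 of them. These 3 were RPL10A of the L1 stalk, the P stalk protein RPLP2 and RPS27A, which is made as a fusion with ubiquitin. In each of them, as in RPL39 and RPLP1, the called changes went both ways. When one fit over the 24 libraries supplied a common spread for each gene, the calls were 0 at 1 h (1.25% of all genes), 1 at 3 h (11.1%), 1 at 5 h (22.5%), 0 at 7 h (20.1%), 5 at 9 h (22.7%) and 3 at 11 h (16.2%). In that fit the share of members at 3 h was thus below that of all genes. At 5, 7, 9 and 11 h no call held whichever library was left out.

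**Figure D4:**
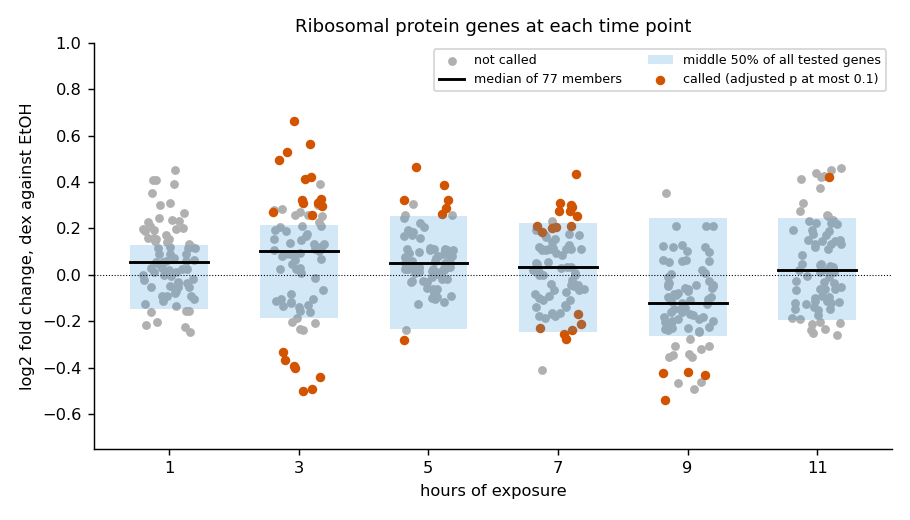
Log2 fold change of dex against EtOH (vertical axis) at each hour of exposure (horizontal axis) for the 77 members, 1 point each with a small sideways shift, orange where the adjusted p is at most 0.1 and grey otherwise, with a black bar at the members' median and a blue band for the middle 50% of all tested genes. Called members lie on both sides of 0 at 3, 5 and 7 h and below 0 at 9 h, and the members' medians stay between -0.12 and 0.10.

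RPL19 and RPS19 were among the members with the largest rises at 3 h. RPL19, which bridges the 2 subunits, stood at 405 and 289 CPM with dex against 212 and 226 CPM with EtOH (log2 fold change 0.66, SE 0.12, adjusted p = 0.00123). Both dex libraries lay above both EtOH libraries, with dex replicate 1 the highest. RPS19 stood at 380.5 and 339.8 CPM with dex against 206 and 293 CPM with EtOH (log2 fold change 0.53, SE 0.14, adjusted p = 0.0226), and EtOH replicate 1 was the low library there. RPS3, at the mRNA entry channel of the small subunit, stood at 401 and 339.9 CPM with dex against 292 and 298 CPM with EtOH (log2 fold change 0.33, SE 0.10, adjusted p = 0.0289) and RPS2 at 963 and 871 CPM with dex against 695 and 798 CPM with EtOH (log2 fold change 0.30, SE 0.10, adjusted p = 0.0513). RPL3, which sits at the peptidyl transferase centre, stood at 831 and 586 CPM with dex against 474 and 533 CPM with EtOH (log2 fold change 0.49, SE 0.13, adjusted p = 0.0306), and RPL5 at 601 and 529 CPM with dex against 458 and 481 CPM with EtOH (log2 fold change 0.27, SE 0.10, adjusted p = 0.0755). The dex value of replicate 1 was the higher of the pair in each of these genes. Without it the log2 fold change of RPL3 was 0.22 (adjusted p = 0.392) and that of RPL19 0.41 (adjusted p = 0.0177). DESeq2 did not call RPL3 (adjusted p = 0.369), and with the GC trend removed RPS2 had a log2 fold change of 0.13 (adjusted p = 0.403).

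RPL27 and RPL39 were among the members with the largest falls at 3 h. RPL27 stood at 203 and 215 CPM with dex against 314 and 275 CPM with EtOH (log2 fold change -0.49, SE 0.10, adjusted p = 8.81e-04), and RPL39, which lines the exit tunnel of the nascent chain, at 195 and 228 CPM with dex against 312 and 263 CPM with EtOH (log2 fold change -0.44, SE 0.10, adjusted p = 0.00504). RPS27A stood at 252 and 292 CPM with dex against 389.7 and 331 CPM with EtOH (log2 fold change -0.40, SE 0.10, adjusted p = 0.00953). In all 3 genes both dex libraries lay below both EtOH libraries. The 13 members that rose had transcripts with a median of 52.1% GC and the 7 that fell 45.1%. Fewer members were called at this hour without dex replicate 1 or without EtOH replicate 1, and fewer of all tested genes too. The share of members was below that of all tested genes in both cases. RPL19 and RPL27 were called whichever library was left out. In one fit over the 24 libraries neither was called (adjusted p of 0.289 for RPL19 and 0.327 for RPL27).

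At 5 h RPL39 had the largest rise, to 214 and 295 CPM with dex against 181 and 187 CPM with EtOH (log2 fold change 0.46, SE 0.12, adjusted p = 0.00386), the opposite side from 3 h. RPS15A of the small subunit stood at 721 and 783 CPM with dex against 633 and 519 CPM with EtOH (log2 fold change 0.39, SE 0.11, adjusted p = 0.0061), RPL37A at 175 and 187 CPM with dex against 168 and 121 CPM with EtOH (log2 fold change 0.32, SE 0.12, adjusted p = 0.0642) and RPS27A at 300.1 and 341 CPM with dex against 287 and 248 CPM with EtOH (log2 fold change 0.26, SE 0.10, adjusted p = 0.0736). The groups did not overlap in these 4 genes, but EtOH replicate 2 was the lower EtOH library in 3 of them, as it was for 71 of the 77 members. RPL9 was the only member called lower with dex, at 558 and 416 CPM with dex against 615 and 569.6 CPM with EtOH (log2 fold change -0.28, SE 0.11, adjusted p = 0.0809). Without EtOH replicate 1, the library in which members stood higher, more members were called and all were higher with dex. Those called without EtOH replicate 2 were all lower, none of them among the 7. Fewer of all tested genes were called in both cases, and without EtOH replicate 1 the share of members was above theirs. Without dex replicate 2 the members called were all higher.

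At 7 h replicates were closest, with a biological coefficient of variation of 6.49% over all genes. RPS28 had the largest rise, at 36.8 and 28.2 CPM with dex against 24.5 and 24.4 CPM with EtOH (log2 fold change 0.44, SE 0.12, adjusted p = 0.00928), from few counts. RPS19 was again higher, at 304 and 267 CPM with dex against 210.2 and 254 CPM with EtOH (log2 fold change 0.31, SE 0.086, adjusted p = 0.00817), and RPS16, which touches the tRNA in the P site, stood at 693 and 644 CPM with dex against 526 and 566 CPM with EtOH (log2 fold change 0.30, SE 0.074, adjusted p = 0.00221). RPLP0, the base of the P stalk, stood at 745 and 684 CPM with dex against 577 and 674 CPM with EtOH (log2 fold change 0.20, SE 0.078, adjusted p = 0.0618), RPL10, which joins the large subunit late in assembly, at 739 and 652 CPM with dex against 511 and 646 CPM with EtOH (log2 fold change 0.28, SE 0.10, adjusted p = 0.0571) and the X-linked RPS4X at 1472 and 1491 CPM with dex against 1284 and 1341 CPM with EtOH (log2 fold change 0.18, SE 0.073, adjusted p = 0.068). In these 6 genes both dex libraries lay above both EtOH libraries. In RPLP0 and RPL10 the nearest libraries, dex replicate 2 and EtOH replicate 2, were almost level.

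The 6 members that fell at 7 h included RPL21 at 77.8 and 75.7 CPM with dex against 98.9 and 88.6 CPM with EtOH (log2 fold change -0.28, SE 0.090, adjusted p = 0.0209), RPL7 at 1291 and 1249 CPM with dex against 1651 and 1397 CPM with EtOH (log2 fold change -0.26, SE 0.079, adjusted p = 0.0166) and RPL36A at 83.9 and 95.8 CPM with dex against 109.7 and 103 CPM with EtOH (log2 fold change -0.24, SE 0.088, adjusted p = 0.0478). RPS27A stood at 316 and 306 CPM with dex against 403 and 322 CPM with EtOH (log2 fold change -0.21, SE 0.086, adjusted p = 0.0831), with EtOH replicate 1 well above the other 3 libraries. The 12 that rose had a median of 54.4% GC and the 6 that fell 44.9%. Fewer members were called here without either dex library and more without EtOH replicate 2, and the same held for all tested genes. Without EtOH replicate 2 the share of members was above that of all tested genes.

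At 9 h 4 members were lower with dex: RPS9, RPL10A, RPLP1 and RPLP2. RPS9, at the mRNA entry channel, stood at 48.4 and 53.9 CPM with dex against 61.6 and 89.6 CPM with EtOH (log2 fold change -0.54, SE 0.17, adjusted p = 0.0525), and RPL10A at 337 and 402 CPM with dex against 424 and 586 CPM with EtOH (log2 fold change -0.43, SE 0.15, adjusted p = 0.0911). Both dex libraries lay below both EtOH libraries, and EtOH replicate 2 was the highest in each. The result at this hour turned on which EtOH library stood for the control. Without EtOH replicate 1 the members called were all lower with dex, and without EtOH replicate 2 most were higher. More members were called in both cases, and more of all tested genes too. The share of members called was above that of all tested genes in both cases, and below it with no library left out. Fewer were called without either dex library, over members as over all tested genes.

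At 11 h, where the biological coefficient of variation over all genes was highest at 12.7%, RPLP2 was the member called. More members were called there without either dex library, and more of all tested genes too. Most of these members were higher without dex replicate 1 and lower without dex replicate 2. The share of members called was above that of all tested genes in both cases. Fewer were called without either EtOH library, over members as over all tested genes. RPS19 shows how far the 2 dex libraries lay apart, at 279 and 566 CPM with dex against 383 and 309 CPM with EtOH (log2 fold change 0.31, SE 0.27, adjusted p = 0.645), so that the groups overlapped.

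For 2 members the dex effect differed between the hours, against 15.4% of all tested genes: RPLP2 (adjusted p = 0.0400 for the 6 hours in one fit) and RPS16 (adjusted p = 0.0331). RPLP2 stood at 421 and 439 CPM with dex against 461 and 381 CPM with EtOH after 1 h, where the groups overlapped, and at 362 and 341 CPM with dex against 305 and 307 CPM with EtOH after 7 h (log2 fold change 0.21, SE 0.073, adjusted p = 0.0357). After 9 h it stood at 276 and 289.7 CPM with dex against 337 and 429 CPM with EtOH (log2 fold change -0.42, SE 0.13, adjusted p = 0.0449) and after 11 h at 389 and 357 CPM with dex against 287 and 278 CPM with EtOH (log2 fold change 0.42, SE 0.13, adjusted p = 0.0762). Both dex libraries were thus above EtOH at 7 and 11 h and below it at 9 h. RPS16 was called at 7 h only. At 9 h it stood at 600.1 and 571 CPM with dex against 617 and 887 CPM with EtOH (log2 fold change -0.34, SE 0.15, adjusted p = 0.18), with EtOH replicate 2 the highest of its 24 libraries, and at 11 h at 684 and 793 CPM with dex against 578 and 577 CPM with EtOH (log2 fold change 0.37, SE 0.13, adjusted p = 0.147). Without EtOH replicate 2 at 9 h neither gene passed this test but other members did, and without dex replicate 2 at 9 h no member passed. More members passed without EtOH replicate 1 at 9 h, these 2 included. Fewer of all tested genes passed without that dex library, and more without EtOH replicate 1 at 9 h. Without either EtOH library at 9 h the share of members that passed was above that of all tested genes. With the GC trend removed RPS16 kept its call (adjusted p = 0.0373) and RPLP2 did not (adjusted p = 0.394), and RPLP2 was also lost without dex replicate 1 at 9 h (adjusted p = 0.175). With no filter on low counts 34 of 77 members passed, a share above the 12.5% of all genes. With the filter the share of members was below that of all genes.

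RPLP1, the partner of RPLP2 in the stalk dimer, stood at 758 and 663 CPM with dex against 446 and 622 CPM with EtOH after 3 h (log2 fold change 0.41, SE 0.13, adjusted p = 0.0661) and at 530.3 and 599 CPM with dex against 710.1 and 823 CPM with EtOH after 9 h (log2 fold change -0.42, SE 0.12, adjusted p = 0.0342), and its test for a difference between hours gave an adjusted p of 0.178. RPLP0 at 9 h had a log2 fold change of -0.10 with an adjusted p of 0.728. Whether the 3 stalk genes differ from one another was not tested.

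**Figure D5:**
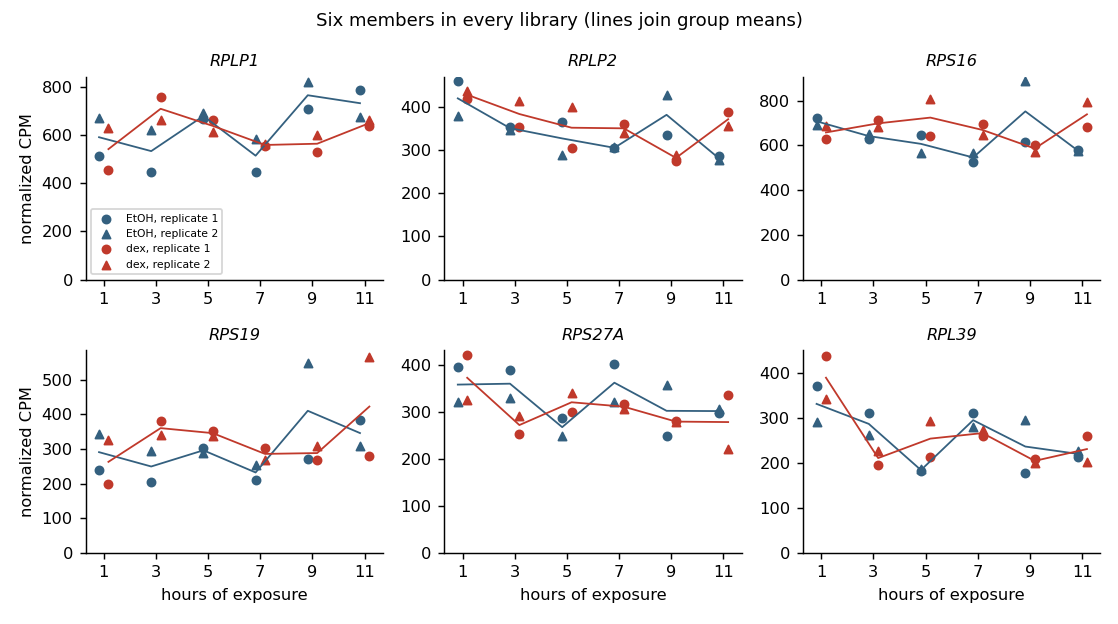
Normalized CPM (vertical axes, from 0) against hours of exposure (horizontal axes) for RPLP1, RPLP2, RPS16, RPS19, RPS27A and RPL39, with circles and triangles for replicates 1 and 2, red for dex, blue for EtOH and lines that join group means. The lines cross in each panel, and EtOH replicate 2 at 9 h is well above replicate 1 in RPS16 and RPS19.

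Of the genes fixed for naming, 8 were called at no hour. RPL4 ran from 946 to 1306 CPM with a median of 1106 in the EtOH libraries and from 991 to 1344 CPM with a median of 1105 in the dex libraries, and its log2 fold changes lay between -0.10 at 3 h and 0.16 at 1 h. RPL22, which has a paralog in RPL22L1, ran from 251 to 319.6 CPM with a median of 269.9 in the EtOH libraries and from 251 to 317 CPM with a median of 278 in the dex libraries. RPS6 ran from 594 to 961 CPM with a median of 735 in the EtOH libraries and from 568 to 911 CPM with a median of 695 in the dex libraries, with log2 fold changes from -0.21 at 11 h to 0.25 at 3 h. RPL41 ran from 647 to 977 CPM with a median of 751 in the EtOH libraries and from 700.0 to 975 CPM with a median of 801 in the dex libraries, with log2 fold changes from -0.23 at 9 h to 0.22 at 11 h. The same was seen for RPL13A (known for silencing inflammatory mRNAs once released from the ribosome), RPL11, RPSA and RPS14 (lost in the 5q- syndrome), whose log2 fold changes ran from -0.25 to 0.20. In all 8 genes the range of the dex libraries overlapped that of the EtOH libraries, but these ranges pool all hours. At single hours groups could lie apart. RPL41 stood at 890 and 792 CPM with dex against 712 and 742 CPM with EtOH at 3 h. At 9 h it was lower, at 706 and 748 CPM with dex against 757 and 974 CPM with EtOH. The groups lay apart in 39.0% of members and 34.6% of all tested genes at 1 h, and in 61.0% and 51.7% at 3 h. Members lay apart less often than all tested genes at 5 h (20.8% against 55.7%), 9 h (15.6% against 55.1%) and 11 h (31.2% against 45.8%). At 7 h the shares were 58.4% and 58.7%.

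In EtOH alone no member passed edgeR's test for a difference between the 6 hours (0 of 77, 13 at an unadjusted p below 0.05), against 0.0522% of all tested genes. DESeq2 called 6 members, beside 3.04% of all genes it tested. RPL23 had the smallest adjusted p, 0.129, followed by RPS20 at 0.192. These 2 were chosen by their p and not by the rule for names. Some members passed without EtOH replicate 1 at 9 h, where more of all tested genes passed as well. The share of members was above that of all tested genes there. With no filter on low counts 44 of 77 members passed, a share above the 4.65% of all genes. The count of 0 thus depended on this filter.

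Genes that share structure or regulation with the members gave the following. Of the 8 -like copies 6 were tested and 3 were called at any hour. RPL39L, the paralog of RPL39, was higher at 1 h (119 and 104 CPM with dex against 78.2 and 53.8 CPM with EtOH, log2 fold change 0.76, SE 0.15, adjusted p = 0.014) and at 5 h, RPS27L, a p53 target, was lower at 3 h (28.6 and 42.1 CPM with dex against 65.5 and 51.1 CPM with EtOH, log2 fold change -0.71, SE 0.16, adjusted p = 0.00842) and at 7 h, and RPL22L1 was lower at 3 h. None of the 6 passed for the mean effect (0 at an unadjusted p below 0.05). FAU, which encodes a ribosomal protein fused to a ubiquitin-like protein, was called at no hour.

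Of the 20 other mRNAs with a TOP tract, which encode translation factors and associated proteins, 0 were called at 1, 5, 9 and 11 h (1, 1, 2 and 0 at an unadjusted p below 0.05), 1 at 3 h, 3 at 7 h and 0 for the mean effect (0 at an unadjusted p below 0.05, against 35.9% of all genes called), with a median mean effect of -0.0023. EIF3E was lower at 3 h (303 and 334 CPM with dex against 419 and 396 CPM with EtOH, log2 fold change -0.35, SE 0.095, adjusted p = 0.0145) and at 7 h. The elongation factor EEF2 was higher at 7 h (489 and 462 CPM with dex against 393 and 434 CPM with EtOH, log2 fold change 0.21, SE 0.074, adjusted p = 0.0354) and NAP1L1 lower. Of 9 host RNAs of snoRNAs, which guide the modification of rRNA, 3 passed for the mean effect (33.3%), a share near the 35.9% of all tested genes. SNHG12 (mean log2 fold change 0.35, SE 0.089, adjusted p = 0.00376) and SNHG15 (mean log2 fold change 0.28, SE 0.069, adjusted p = 0.00236) were higher on average and SNHG1 lower (mean log2 fold change -0.18, SE 0.051, adjusted p = 0.00866), while GAS5 was called at 9 h alone (log2 fold change 0.41, SE 0.11, adjusted p = 0.0304).

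Of 20 regulators of TOP mRNA translation and of ribosome production, 7 (35%) passed for the mean effect, 5 higher and 2 lower, a share near the 35.9% of all tested genes. DDIT4, an inhibitor of mTORC1 and a known GR target, was higher from 3 h on, with 234 and 212 CPM with dex against 105 and 85.0 CPM with EtOH at 5 h (2.35-fold, log2 fold change 1.23, SE 0.11, adjusted p = 3.72e-12). Its 2 dex libraries were above both EtOH libraries at all 5 of these hours, and at 1 h the groups overlapped. Its paralog DDIT4L was lower at 3 h at low counts (0.442 and 0.768 CPM with dex against 2.75 and 2.21 CPM with EtOH, log2 fold change -1.97, SE 0.46, adjusted p = 0.00453) and at 5 h. MYC, which drives transcription of ribosomal genes, was called at 5, 7 and 9 h, with 254 and 253 CPM with dex against 179.9 and 214 CPM with EtOH at 5 h (log2 fold change 0.36, SE 0.10, adjusted p = 0.00802), and it was also higher on average over the 6 hours (mean log2 fold change 0.20, SE 0.043, adjusted p = 6.05e-04). RPTOR, TSC1 and TSC2 were higher on average by 0.14 to 0.17 on the log2 scale, and RPS6KB1, one of the kinases of RPS6, was lower with a mean log2 fold change of -0.096. MTOR itself was called at no hour and its log2 fold changes lay between 0.046 and 0.22.

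The 76 mitochondrial ribosomal proteins, which make up the separate ribosome of that organelle and whose mRNAs are not counted among TOP mRNAs, were called in 0 cases at 1 h (5 at an unadjusted p below 0.05), 6 at 3 h (7.89%, against 14.1% of all genes), 11 at 5 h (14.5%, against 25.0%), 11 at 7 h (14.5%, against 28.2%), 4 at 9 h (5.26%, against 19.8%) and 0 at 11 h (5 at an unadjusted p below 0.05). For the mean effect 8 passed (10.5%, against 35.9% of all genes), 6 higher and 2 lower, beside 0 of the 77 cytosolic members. MRPS23 had the largest called change, at 331 and 316 CPM with dex against 176 and 184 CPM with EtOH at 5 h (log2 fold change 0.84, SE 0.10, adjusted p = 6.58e-09), and was higher at 3, 5, 7 and 9 h. MRPL54 reached a log2 fold change of 0.91 but was called at no hour. MRPL16 was called at 3, 5 and 7 h, with 45.0 and 50.8 CPM with dex against 36.7 and 36.5 CPM with EtOH at 7 h (log2 fold change 0.39, SE 0.11, adjusted p = 0.00578), and MRPL15 at 2 hours. The difference between the cytosolic and the mitochondrial set was not tested.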

How the data were processed

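Poly-A RNA-seq of A549 cells was analysed in 24 libraries, 12 groups of 2. Single-end reads, 50 bases long, were mapped by the authors to GENCODE transcripts with Bowtie and counted with samtools idxstats, and the deposited values are these counts per transcript, not normalized. The submitters' processing notes name hg19. How reads with several matches were placed is not given in the sources used here. The paper's methods state triplicates where the labels give 2 replicates, and the treatment text of the labels states 1 h for every library. The duration label was used.

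Transcripts were joined to genes by identifier through GENCODE release 29 on GRCh38, counts were summed per gene, and 8946 of 119207 transcripts without a match (5.92% of counts) were left out. Gene totals were scaled by TMM, genes were kept by filterByExpr over the 12 groups, and edgeR 4.0.16 (R 4.3.3) tested dex against EtOH at each hour with its robust quasi-likelihood F-test and Benjamini-Hochberg adjustment over 15337 genes at a threshold of 0.1, the threshold of the study. A fit over the 24 libraries gave the mean effect, its variation between hours and the EtOH time course. The SE was taken as the size of the log2 fold change over the root of its F statistic. Scripts were tested on simulated data. With library totals from 6708864 to 13748598, members held at least 171 counts per library.

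Members and lists were chosen with earlier results of these data known. Named were 21 genes fixed by role, the 3 members with the largest called change in each direction at each hour whose groups did not overlap, the 3 highest and 3 lowest by level, and in other lists the genes called most often. Some genes of the rule are not reported here. Genes outside it are named only as called members, calls of a mean effect, or as stated. Alternatives were DESeq2 1.42.0, its size factors, total counts, no filter, 10 counts in every library, one fit, the replicate block, a threshold of 0.05, one transcript per gene, pseudogene counts added and each library left out. Keeping unmatched transcripts and removing a GC trend (loess, span 0.5) were added after seeing the data.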

Additional observations from a re-analysis of the deposited data

Results flagged for a closer look

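Of the 77 ribosomal protein genes, 2 had a dex effect that differed between the 6 hours by the interaction test of edgeR's quasi-likelihood fit over 24 libraries, against 15.4% of all tested genes. RPLP2 had an adjusted p of 0.0400. Both of its dex libraries were above both EtOH libraries at 7 and 11 h (log2 fold changes 0.21 and 0.42) and below them at 9 h (-0.42), and at 1, 3 and 5 h the groups overlapped. RPS16 had an adjusted p of 0.0331, with log2 fold changes of 0.30 at 7 h and 0.37 at 11 h, where both dex libraries were higher, and -0.34 at 9 h, where both were lower. At 9 h the EtOH replicates of RPS16 stood at 617 and 887 CPM, and those of RPLP2 at 337 and 429 CPM. Neither gene passed without EtOH replicate 2 at 9 h or without dex replicate 2 at 9 h. RPLP2 was also lost without dex replicate 1 at 9 h (adjusted p = 0.175). With the GC trend of each library removed RPS16 had an adjusted p of 0.0373 and RPLP2 one of 0.394.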

How the results depend on the processing

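Counts of called members depended on the settings, and 2 libraries a group limit each of them. The share of all tested genes called moved as well, with the settings and with the library left out. DESeq2 called 11 at 3 h (8.72% of all genes), 2 at 5 h (15.9%), 7 at 7 h (17.8%) and 0 at 11 h (6.86%). It called 1 for the mean effect (32.2%), 5 for a dex effect that varied (17%), RPLP2 and RPS16 included, and 6 for the EtOH course (3.04%). One fit over 24 libraries called 1 at 3 h (11.1% of all genes), 1 at 5 h (22.5%), 0 at 7 h (20.1%) and 3 at 11 h (16.2%). At a threshold of 0.05 there were 12 at 3 h (10.5% of all genes), 2 at 5 h (20.2%), 2 at 9 h (14.3%) and 0 at 11 h (6.9%). Total counts without TMM gave 3 at 5 h (25.1% of all genes), 8 at 9 h (21.1%) and 0 at 11 h (9.14%). They gave 1 for the mean effect (38.4%) and 1 for the EtOH course (0.104%). They also turned the members' median at 7 h (-0.0073), 11 h (-0.040) and for the mean effect (-0.021) below 0. With no filter there were 1 at 1 h (1.11% of all genes), 10 at 9 h (14.3%), 6 at 11 h (7.66%) and 8 for the mean effect (20.7%). There were then 34 that varied (12.5%) and 44 in the EtOH course (4.65%). In both of these tests the share of members was above that of all genes. With the GC trend removed there were 1 at 1 h (1.72% of all genes), 4 at 5 h (26.1%) and 0 at 11 h (12.9%). There were 1 for the mean effect (39.7%) and 2 in the EtOH course (0.815%). The members' median turned below 0 at 11 h (-0.0085) and for the mean effect (-0.0052). Unmatched transcripts kept gave 0 at 11 h (8.58% of all genes) and 1 in the EtOH course (0.0704%), and one transcript per gene gave 2 at 11 h (7.83%). That last setting was run at single hours only. The other counts, those with DESeq2's size factors, 10 counts in every library and pseudogene counts added among them, stayed within 1.5 times. The cause of these shifts was not tested.

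Leaving out 1 library, the lone sample left being assumed to vary like the others, gave 0 to 16 calls at 1 h, 4 to 27 at 3 h, 3 to 21 at 5 h, 0 to 42 at 7 h, 0 to 65 at 9 h, 0 to 36 at 11 h, 0 to 11 for the mean effect, 0 to 17 for a varying effect and 0 to 8 in the EtOH course. At 1 h members were called without dex replicate 1, dex replicate 2 or EtOH replicate 1. In each of these cases the share of members was above that of all tested genes. The mean effect gave 3 calls without dex replicate 1 at 11 h, and the EtOH course 3 without either dex library at 11 h. The varying effect gave 6 and 5 without dex replicates 1 and 2 at 11 h, 5 without EtOH replicate 2 at 3 h, 4 without dex replicate 2 at 3 h or EtOH replicate 2 at 7 h, 1 without dex replicate 1 at 9 h, and 14 or 17 without an EtOH library at 9 h. Of 33 called values of genes the rule names, 309 of 396 values under the other settings stayed called, as did 67 of 132 with 1 library left out, and 0 turned direction.

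The paper's methods call the ethanol control paired, and which libraries form pairs is not stated there. The main tests used no pairs. Over all tested genes, the correlation of the deviations of same-numbered dex and EtOH libraries ran from -0.068 at 3 h to 0.157 at 1 h. Over the members it ran from -0.51 at 3 h to 0.69 at 1 h. With 2 libraries a group these values cannot decide whether same-numbered libraries were pairs. With the replicate block there were 8 at 1 h (3.8% of all genes), 16 at 9 h (28.6%) and 6 at 11 h (11.8%). There were 3 for the mean effect (36.9%) and 7 that varied (18.1%), and no other count moved by over 1.5 times.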
